A study of Mus musculus with 5 samples.

Results

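The genes described here are 10 components of the JAK-STAT pathway in mouse hematopoietic stem cells (HSCs) with and without the RNA-binding protein SYNCRIP. They were chosen by name, as the kinases Jak1 and Jak2, the transcription factors Stat3, Stat5a and Stat5b, the feedback inhibitors Socs1, Socs2, Socs3 and Cish, and the target kinase Pim1. Below, the inhibitors and Pim1 are together called feedback genes for brevity, although Pim1 is a target and not an inhibitor. All 10 were found among the 24046 gene symbols of the expression table, and all 10 were among the 13661 genes that passed the filter for testing (a normalized read count of at least 10 in at least 2 libraries). Bulk RNA-seq was made from HSCs sorted as CD150+ and CD48- cells within the Lin-, Sca1+, cKit+ fraction of CD45.2+ donor cells, 9 weeks after bone marrow had been transplanted into CD45.1 congenic mice. Both groups carried floxed alleles (Syncrip flox/flox) and both had received polyinosinic:polycytidylic acid (pIpC), an inducer of type I interferon, 3 weeks before the sort. The 3 control libraries were Mx1 Cre- (WT 1, WT 2 and WT 3) and the 2 knockout libraries were Mx1 Cre+ (KO 2 and KO 3). Cre stood under the interferon-responsive Mx1 promoter, so that deletion was not restricted to HSCs among the grafted cells, while the cells of the recipient carried no Cre. The labels gave no ages and did not say whether a library came from 1 mouse or several, so p-values measure the spread between these libraries, which may be partly technical.

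Cytokines such as interleukin 3, interleukin 6 and the interferons bind receptors that have no enzyme activity of their own and rely on Janus kinases (JAKs). An activated JAK phosphorylates the receptor and then STAT proteins, which pair through their SH2 domains, enter the nucleus and bind DNA at palindromic sites. In HSCs, signals through Jak2 and Stat5 support maintenance of the stem cell pool. STATs also induce their own brakes, CISH and the SOCS proteins, which bind phosphorylated receptors or JAKs and recruit a ubiquitin ligase, so that the mRNA of these genes is often used as a readout of recent signaling.

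The libraries held 12539599 (KO 3) to 22779536 (WT 3) reads, and both KO libraries were shallower than the WT libraries. Syncrip itself was read at 1440 to 1944 normalized counts in WT but at only 294 (KO 2) and 343 (KO 3) in the knockouts, which matched the labels (limma log2 fold change -2.43, SE 0.22, adjusted p = 0.0352). Markers of the sort gate and of HSCs (Kit, Ly6a, Slamf1, Procr, Mecom, Hlf, Fgd5 and Hoxb5) were present in all 5 libraries. With Ptprc, these markers took 0.0732% to 0.106% of the reads in WT. A list of 10 neutrophil and myeloid genes took far more, 6.03% to 7.20%. Levels given below are therefore those of the sorted cells as a whole. Cd48, the marker sorted against, was still read at 601 to 768 in WT and at 460 and 191 in KO 2 and KO 3. KO 2 stood apart through adipocyte transcripts, with 9 of 10 adipocyte markers highest there and 0.0977% of its reads in that list, against at most 0.00323% in WT and 0.000782% in KO 3. KO 3 was the library farthest from the controls over all genes, with a chi-square over degrees of freedom of 167 to 232 against each control (66.7 to 87.9 for KO 2 and 34.0 to 56.5 between controls). For these reasons the difference of each KO library from the WT mean is given separately for several members below. In bulk RNA, fewer cells of a type and less RNA per cell cannot be told apart.

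In control HSCs, the kinases and STATs were expressed at much higher levels than the feedback genes. Per kilobase of merged exon, Jak1 had the highest WT level (960 ± 57.6 normalized reads, SD, n = 3), followed by Stat5b (635 ± 86.6), Stat3 (592 ± 76.8), Stat5a (436 ± 41.8) and Jak2 (408 ± 40.5). The WT ranges of Stat5b and Stat3 overlapped, as did those of Stat5a and Jak2, while Jak1 lay above all others and Stat3 above Stat5a in every WT library. All 5 feedback genes lay below the lowest WT value of Jak2, from Socs3 (69.3 ± 3.85) and Pim1 (68.1 ± 23.5) to Socs1 (46.9 ± 14.2), Cish (41.0 ± 29.5) and Socs2 (36.2 ± 31.5), and each of their WT ranges overlapped with that of the next. The kinases and STATs had 721 or more reads in any library, whereas the feedback genes had 72 to 1277. Intervals of reads given below cover only the counting error of reads, as molecules were not tagged.

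**Figure D1:**
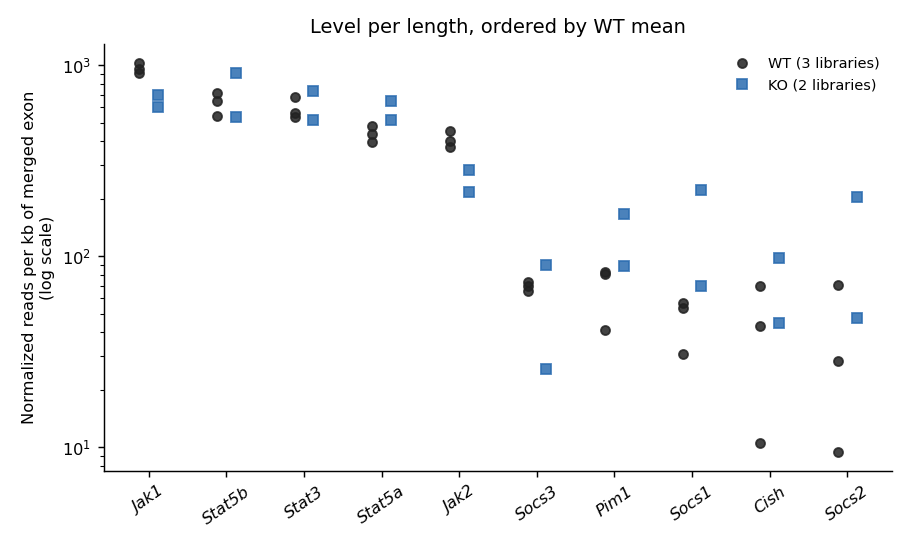
Normalized reads per kilobase of merged exon (y axis, log scale) for the 10 JAK-STAT genes (x axis, ordered by WT mean), with WT libraries as black circles and KO libraries as blue squares. The 5 kinases and STATs lie between 218 and 1020, and the 5 feedback genes between 9.44 and 222.

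To ask whether loss of Syncrip altered these transcripts, the 2 KO libraries were compared with the 3 WT libraries by limma over all 13661 genes. No member passed a Benjamini-Hochberg adjusted p of 0.05 in either direction, where 0.00732% of all genes tested did (1 gene, Syncrip). At an unadjusted p under 0.05 there were 3 members (Jak1 and Jak2 lower, Socs1 higher), against 27.8% of all genes. With edgeR, 0 of the 10 members were called, against 0.0146% of all genes. DESeq2, the tool of the study, called the same 3 members, 1 higher and 2 lower, and called 18.7% of the genes for which it gave an adjusted p (9.27% higher and 9.46% lower). At a limma adjusted p under 0.1, 0 members were higher and 2 lower (Jak1 and Jak2), where 4.76% of all genes were higher and 6.47% lower, 11.2% in all. Both KO values lay on the same side of all WT values for 5 members (47.1% of all genes), with 3 higher (Stat5a, Socs1 and Pim1) and 2 lower (Jak1 and Jak2). Over all genes tested, 23.9% lay higher and 23.2% lower in this way, so the count of separated members was close to the background. Limma called 3 members without KO 2 (Socs1, Socs2 and Jak2) and 0 without KO 3, in fits that called 26.6% and 0.082% of all genes. With KO 3 alone 10 members, and with KO 2 alone 8, lay outside the control range, as did 78.8% and 63.8% of all genes. The median log2 fold change was 0.27 over the 10 members and 0.02 over all genes tested, and the median of the members was 0.03 in KO 2 and 0.55 in KO 3. After correction for transcript length and GC content it was -0.12 over the members and -0.02 over all genes.

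**Figure D2:**
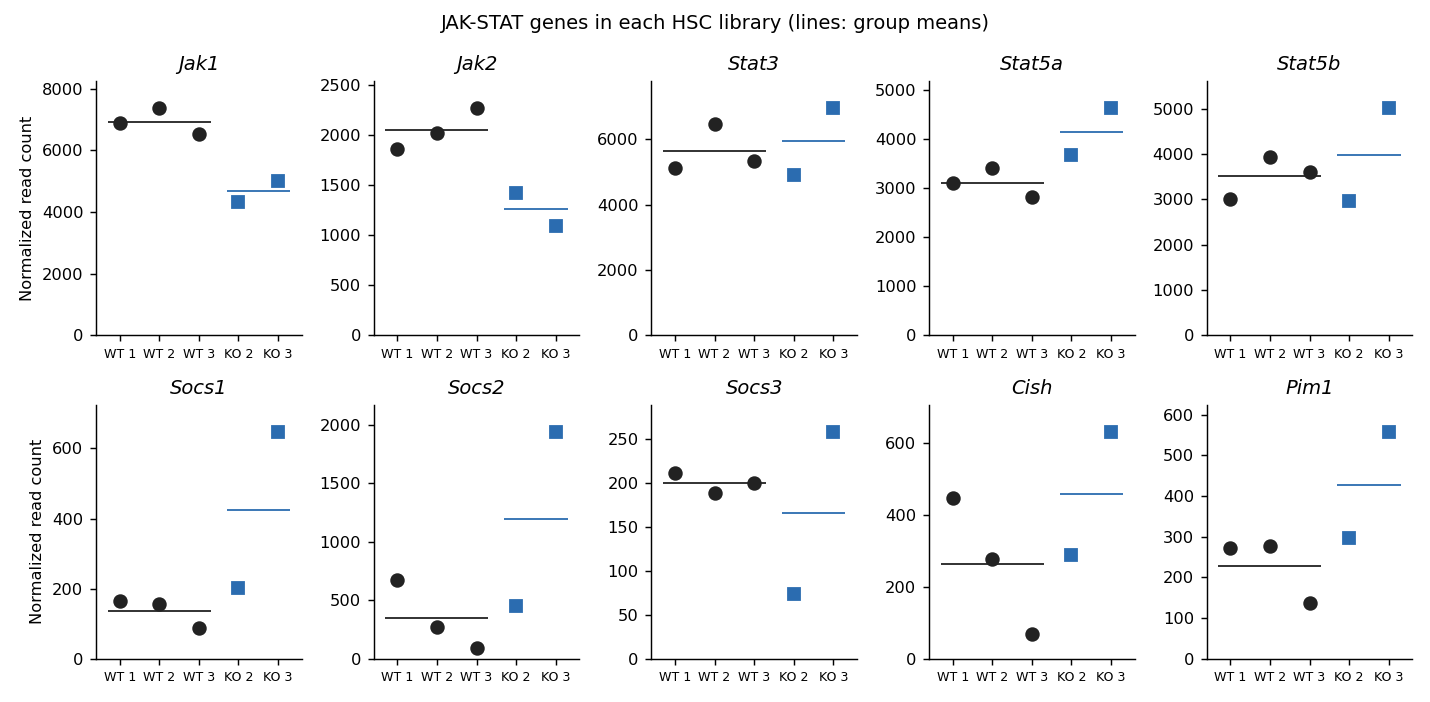
Normalized read count (y axis, from 0) of each of the 10 genes in the 5 libraries (x axis), with WT as black circles, KO as blue squares and horizontal lines at the group means. Jak1 and Jak2 are lower in both KO libraries, and the 5 feedback genes are highest in KO 3.

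Both kinases were lower in each KO library than in any control. Jak1 (chromosome 4, 101152367 to 101265282, minus strand, GRCm38), a kinase shared by interferon, interleukin 6 and common gamma chain receptors, was read at 6899 (WT 1), 7372 (WT 2) and 6542 (WT 3) normalized counts in the controls and at 4339 (KO 2) and 5015 (KO 3) in the knockouts. Both KO values lay below the lowest WT value, and the KO mean was 67.4% of the WT mean. Its log2 fold change was -0.57 (SE 0.17, 95% interval -0.95 to -0.19, limma adjusted p = 0.0919). The difference from the WT mean was -0.68 in KO 2 and -0.47 in KO 3 on the log2 scale, whereas the WT libraries lay within -0.083 and 0.089 of their mean.

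Jak2 (chromosome 19, 29251828 to 29313080, plus strand), the kinase of the erythropoietin and interleukin 3 receptors, had 1867, 2021 and 2271 in the WT libraries and 1421 and 1095 in KO 2 and KO 3. The groups again did not overlap, and the KO mean was 61.3% of the WT mean. The log2 fold change was -0.71 (SE 0.20, 95% interval -1.17 to -0.26, limma adjusted p = 0.0879), from -0.53 in KO 2 and -0.90 in KO 3. DESeq2 gave adjusted p of 0.0148 for Jak1 and 0.0161 for Jak2. Per kilobase of merged exon, the level of Jak1 relative to Jak2 was 2.01 to 2.57 in WT, 2.13 in KO 2 and 3.19 in KO 3.

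The 3 STAT genes lie side by side on chromosome 11, and each had a KO mean above its WT mean. Stat5a (100859351 to 100885169, plus strand), a mediator of interleukin 3 signals, had 3096, 3419 and 2823 in WT and 3674 and 4631 in KO 2 and KO 3. Both KO values exceeded the highest WT value. The log2 fold change was 0.41 (SE 0.18, 95% interval -0.01 to 0.83), and it did not pass the test (limma adjusted p = 0.187).

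Stat5b (100780731 to 100850724, minus strand), its close paralog with overlapping functions, had control values of 2999, 3944 and 3612, and stood at 2957 in KO 2 and 5010 in KO 3. KO 2 was the lowest of the 5 libraries and KO 3 the highest, so the groups overlapped (log2 fold change 0.14, SE 0.25, limma adjusted p = 0.735). Stat3 (100885098 to 100939540, minus strand), which acts downstream of interleukin 6 and granulocyte colony-stimulating factor, behaved in the same manner, with 5115, 6474 and 5326 in WT, 4917 in KO 2 and 6953 in KO 3. Its log2 fold change of 0.06 (SE 0.21, limma adjusted p = 0.867) was smaller than the spread among the WT libraries. The 95% interval of the difference was -0.41 to 0.53 for Stat3 and -0.43 to 0.70 for Stat5b, which leaves room for changes of moderate size in either direction. Per kilobase of merged exon, the ratio of Stat5a to Stat5b was 0.607 to 0.802 in WT, 0.965 in KO 2 and 0.718 in KO 3. Because Stat5a and Stat5b are similar in sequence, and the ends of Stat5a and Stat3 share 72 bases on opposite strands, some reads of these genes may have been assigned to a neighbor or left out, and the use of strand was not given in the sources used here.

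Among the controls, 4 of the 5 feedback genes differed more from library to library than the kinases and STATs did, the exception being Socs3. Socs2 (chromosome 10, 95385362 to 95417180, minus strand), a STAT5-induced inhibitor known from growth hormone signaling, varied from 675 normalized reads (WT 1) through 269 (WT 2) to 90.0 (WT 3) among controls, and stood at 451 in KO 2 and 1939 in KO 3. KO 3 lay above all controls and KO 2 within them. The highest WT value was 7.5 times the lowest (3 times or more for 2 members, Socs2 and Cish, and for 10.7% of all genes), and the log2 spread of Socs2 among WT libraries (SD 1.45) exceeded that of 95.8% of the genes tested. Its log2 fold change of 1.88 was thus the largest of the 10 members without passing the test (SE 0.83, 95% interval -0.01 to 3.76, limma adjusted p = 0.181). On the log2 scale, KO 2 stood 0.83 and KO 3 2.93 above the WT mean.

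Cish (chromosome 9, 107296026 to 107302784, plus strand), the founding member of this inhibitor family and a classical target of STAT5, was likewise highest in WT 1 and lowest in WT 3 among the controls. It had 445, 277 and 67.7 in the WT libraries and 288 and 630 in KO 2 and KO 3. Only KO 3 exceeded the controls (limma log2 fold change 1.06, SE 0.72, adjusted p = 0.358). Without WT 3 the log2 fold change was 0.28 for Cish and 1.13 for Socs2. The exact Poisson 95% interval of Cish was 408 to 485 in WT 1 and 53.6 to 84.4 in WT 3, so the spread of the controls exceeded the counting error of reads. Over all genes, every pair of libraries exceeded this error (lowest chi-square over degrees of freedom 34.0).

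Socs1 (chromosome 16, 10782240 to 10785536, minus strand), which inhibits JAKs directly and restrains interferon signals, had 165, 155 and 89.1 in WT and 203 and 647 in KO 2 and KO 3. Here both KO libraries lay above the controls, and KO 3 was 3.19 times KO 2. However, the exact Poisson 95% interval of KO 2 (175 to 233) overlapped that of WT 1 (143 to 189). The log2 fold change was 1.45 (SE 0.52, 95% interval 0.27 to 2.64, limma adjusted p = 0.123, DESeq2 adjusted p = 0.0210). Pim1 (chromosome 17, 29490753 to 29496112, plus strand), a survival kinase induced by STAT5, had 272, 277 and 138 in WT and 297 and 557 in KO 2 and KO 3. Both KO values exceeded the controls, although KO 2 did so by little (log2 fold change 0.90, SE 0.41, limma adjusted p = 0.198, and 0.57 without WT 3). For Pim1 too, the Poisson interval of KO 2 (264 to 333) overlapped a control interval, that of WT 2 (247 to 309).

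Socs3 (chromosome 11, 117966079 to 117970047, minus strand), the main inhibitor of the interleukin 6 and granulocyte colony-stimulating factor receptors, did not follow the other 4. It was nearly constant in the controls, at 211, 189 and 201, and took opposite positions in the knockouts, with 74.0 in KO 2 and 258 in KO 3. The count of 72 reads in KO 2 had an exact Poisson 95% interval of 57.9 to 93.2 normalized reads, below the interval of each control. The log2 difference from the WT mean was -1.42 in KO 2 and 0.37 in KO 3, so that the log2 fold change of -0.53 (SE 0.50, limma adjusted p = 0.511) averaged opposite values. Per kilobase of merged exon, Socs1 stood at 0.442 to 0.816 of the Socs3 level in WT, but at 2.72 and 2.49 times that level in KO 2 and KO 3.

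**Figure D3:**
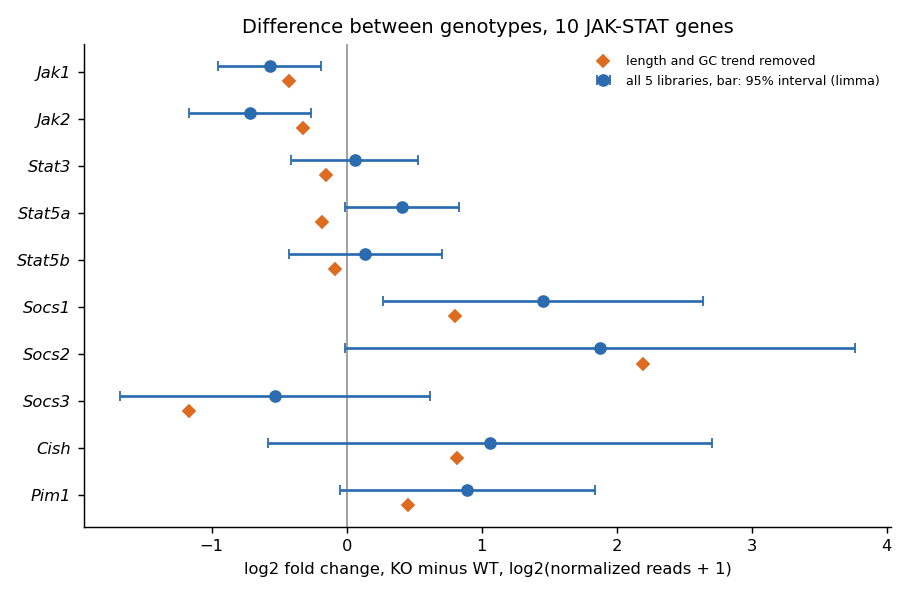
log2 fold change of KO over WT (x axis, log2 of normalized reads + 1) for the 10 genes, with blue circles and bars for the limma estimate and its 95% interval, and orange diamonds for the estimate after correction for transcript length and GC content. The intervals of Jak1, Jak2 and Socs1 exclude 0, and those of Socs2 and Cish are the widest.

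The start regions of these genes were searched for the STAT consensus TTCNNNGAA, which reads the same on both strands. RefSeq (GRCm38.p6) gave windows from 250 bases before to 50 bases after the start for 9 of the 10 members, all except Socs2. The motif was present in 2 of the 9, Cish with 2 overlap-free copies and Socs3 with 1 copy, and in 8.44% of the tested genes that had such a window. At least 2 copies were held by 0.514% of those genes. Both runs are shown because they lie in feedback genes whose levels took different courses over the libraries. Motif copies are in capitals, in the direction of transcription. The copies of Cish begin at bases 1 and 12 from the RefSeq start (chr9:107296654-107296683, plus strand) and that of Socs3 at base -154 (chr11:117969502-117969530, minus strand).
Cish: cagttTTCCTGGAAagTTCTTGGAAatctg
Socs3: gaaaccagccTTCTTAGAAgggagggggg
A match describes the letters only, and absence of a match in the windows of Socs1, Pim1 and the kinases and STATs says nothing of sites elsewhere.

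Next, the levels of the members were followed over the 5 libraries. All 5 feedback genes were highest in KO 3, and 4 of them (all but Socs3) were lowest in WT 3. Over all genes tested, 35% were highest in KO 3, 20.9% were lowest in WT 3 and 14.5% were both. KO 3 lay above every control for 8 members (40% of all genes) and KO 2 for 3 members (32.8%). Expressed relative to the mean of the 5 libraries on the log2 scale, Socs2 ran from -2.24 in WT 3 to 2.18 in KO 3 and Cish from -2.0 to 1.20, while Jak1 stayed between -0.45 and 0.32.

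Some genes that mark HSCs were also lowest in WT 3 or highest in KO 3. Of 9 markers of HSCs or the sort gate, 7 were lowest in WT 3 and 6 were highest in KO 3. Together they took 0.0906% of the reads in KO 3, within the WT range of 0.0732% to 0.106%, and 0.0688% in KO 2, below it. Kit weighs most in this share, at 8007 to 10741 normalized reads. Taken singly, 6 of the 9 lay above all controls in KO 3 and 0 in KO 2 (40% and 32.8% of all genes). Kit, Ly6a and Ptprc were not highest in KO 3, and Ptprc was lowest there. Hlf, a transcription factor of primitive HSCs, had 1719, 1028 and 631 in the WT libraries and 924 and 2114 in KO 2 and KO 3. Mecom, another such factor, had 821, 534 and 279 in WT and 542 and 1151 in KO 2 and KO 3. Other cell type lists also shifted in KO 3, where neutrophil and myeloid genes took 2.60% of the reads (6.03% to 7.20% in WT and 5.34% in KO 2). All 5 megakaryocyte markers, which platelet-biased HSCs express as well, were highest there, at 0.0542% of the reads against 0.0135% to 0.0199% in WT and 0.0275% in KO 2. The part of these differences in the values of the feedback genes was not tested.

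**Figure D4:**
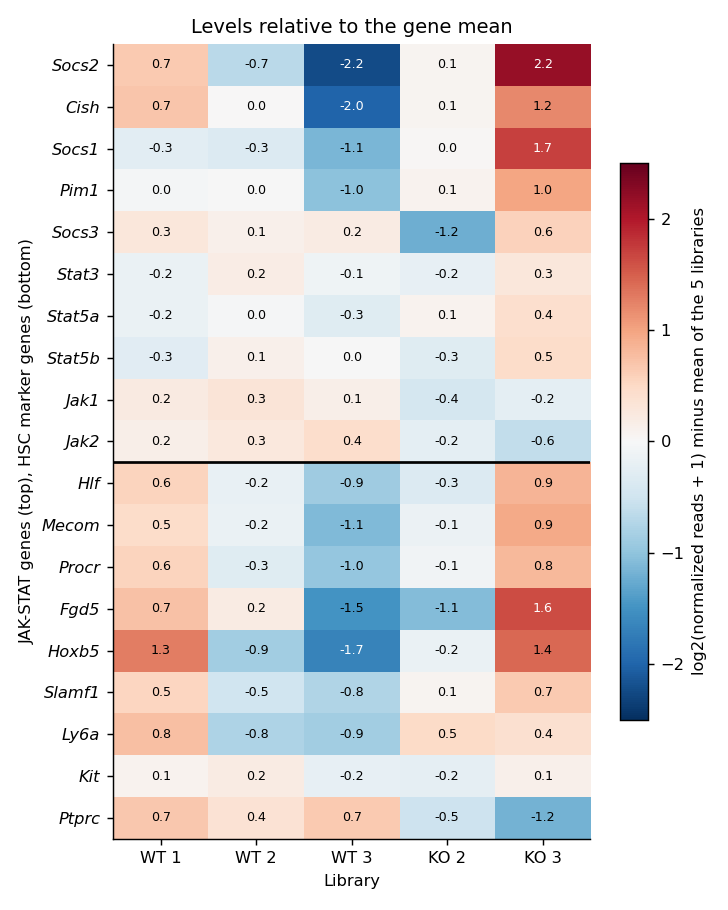
Heat map of log2(normalized reads + 1) minus the mean of the 5 libraries, with libraries as columns, the 10 JAK-STAT genes above the line and 9 HSC or sort gate markers below it. Socs2 and Cish are lowest in WT 3 (-2.24 and -2.0) and highest in KO 3 (2.18 and 1.20), as Hlf and Mecom are, whereas Jak2 and Ptprc are lowest in KO 3.

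The genes most like Socs2 and Socs1 in their course over the libraries were then sought among all genes tested, by the root mean square distance between centred log2 profiles over the 5 libraries. Those closest to Socs2 were 1700001C19Rik (distance 0.25), B630019K06Rik (0.31) and Bex1 (0.33), where the median gene lay at 1.5. Bex1 had 74.9, 55.5 and 12.9 normalized reads in WT 1, WT 2 and WT 3 and 92.5 and 334 in KO 2 and KO 3. Atp13a2, a lysosomal transport ATPase, was closest to Socs1 (0.074), followed by Cxxc5 (0.076) and Maff (0.088), with the median gene at 1.00. Among the members themselves, the smallest distances were those of Stat3 to Stat5b (0.11), Stat3 to Stat5a (0.19), Stat5a to Stat5b (0.23) and Jak1 to Jak2 (0.24). These distances share the same 5 libraries and are descriptions.

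Since the median fold change over all genes was higher the higher the GC content of the transcripts, the members were also read against genes of like composition, in 10 bins of equal size by GC content. Jak2 (44.3% GC) and Socs2 (45.4%) fell in the same bin, whose median log2 fold change was -0.35. Socs2 lay far above this median, at 1.88, and Jak2 below it, at -0.71. Jak1 (47.6%) was at -0.57 where its bin had a median of -0.21. Stat5a (57.9%) was close to its bin, with 0.41 against 0.46, and so was Stat3 (52.5%), with 0.06 against 0.21. Pim1 (56.0%), in the bin of Stat5a, stood at 0.90. Socs1 and Socs3 had nearly the same GC content (58.8% and 58.7%) in a bin with a median of 0.73, and stood at 1.45 and -0.53.

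When each library was corrected for its linear trend on transcript length and on GC content, Jak1 and Jak2 still lay below all WT values in both KO libraries, at -0.42 (limma adjusted p = 0.216) and -0.32 (0.342). Socs2 was at 2.19, Socs1 at 0.80, Cish at 0.81 and Pim1 at 0.45, and none passed the test (limma adjusted p of 0.255, 0.380, 0.568 and 0.540). Neither Socs1 nor Pim1 was then separated from the controls. Socs3 then stood at -1.17 and lay below the controls in both KO libraries. Stat5a changed sign, to -0.18, with both KO values below the controls. Thus 4 members were separated in this fit, all lower, where 3 had been higher and 2 lower before. In that fit 18.6% of all genes were lower and 17.2% higher in this way.

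Other genes of the pathway were examined by role, from lists of 80 symbols, of which 79 were in the table and 69 were tested. None passed an adjusted p of 0.05 with limma. At an unadjusted p under 0.05 there were 11 higher and 9 lower (27.8% of all genes in either direction), edgeR called 0, and DESeq2 called 11, 7 higher and 4 lower (18.7% of all genes). Both KO values lay above the controls for 14 of the 69 and below them for 14, where 23.9% of all genes were higher and 23.2% lower in this way, and the median log2 fold change was 0.03.

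Among the other Janus kinases, Jak3, which pairs with the common gamma chain, had 3576, 3151 and 2070 in WT, 3624 in KO 2 and 9181 in KO 3. Both KO values exceeded the controls, in KO 2 by little (log2 fold change 1.01, SE 0.38, limma adjusted p = 0.136, DESeq2 adjusted p = 0.0272). With the length and GC trend removed, its log2 fold change was 0.20. Tyk2, a kinase of the type I interferon receptor, overlapped between groups (0.39, limma adjusted p = 0.247) and stood at -0.14 after the same correction. No test of the difference between the 4 kinases was made.

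Of the other STATs, Stat4 (1285, 864 and 1013 in WT against 693 and 693 in KO) and Stat6 (3245, 3822 and 3576 against 2804 and 2861) lay below the controls in both KO libraries. Their log2 fold changes were -0.59 and -0.32 (limma adjusted p of 0.145 and 0.240), and -0.26 and -0.60 with the trend removed. Stat2 (-0.16), which carries type I interferon signals, overlapped between groups (limma adjusted p = 0.710). In the SOCS family, Socs4 was lower in both KO libraries (-0.76, limma adjusted p = 0.175) and Socs7 higher (0.57, 0.287), while Socs5 (0.59) and Socs6 (-0.08) overlapped with the controls. With the trend removed, Socs4 stood at 0.04, Socs5 at 0.72, Socs6 at 0.62 and Socs7 at 0.26. Of the remaining PIM kinases, Pim3 had 624, 671 and 570 in WT, 986 in KO 2 and 1660 in KO 3 (limma log2 fold change 1.04, SE 0.26, adjusted p = 0.0818), and Pim2 overlapped (0.15, limma adjusted p = 0.858). Removal of the trend put Pim3 at 0.18 and Pim2 at -0.18, and no test of the difference between them was made.

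**Figure D5:**
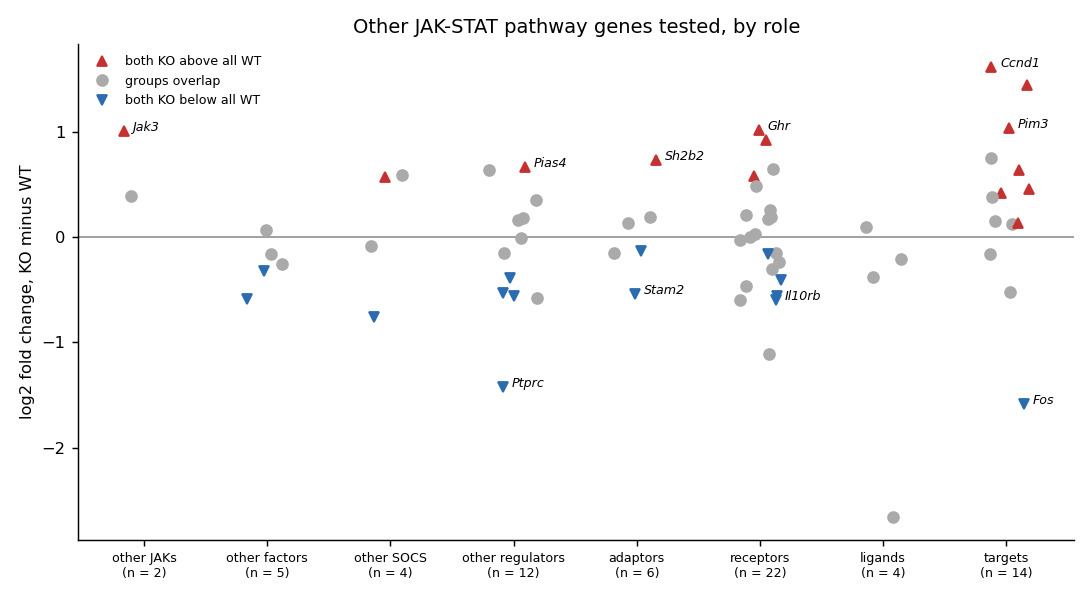
log2 fold change of KO over WT (y axis) for the 69 other pathway genes tested, grouped by role (x axis, with the number tested), with red triangles for genes above the controls in both KO libraries, blue triangles for genes below them and grey circles for overlap. Ccnd1 (1.63) is the highest of the targets and Fos (-1.59) the lowest.

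Among 12 other regulators, 1 lay above the controls and 4 below (23.9% and 23.2% of all genes). Ptprc, the gene of the phosphatase CD45, which acts on JAKs and whose CD45.2 form was sorted for, was the lowest (from 3735 to 4635 in WT, 2010 in KO 2 and 1271 in KO 3, with a log2 fold change of -1.42, SE 0.23, limma adjusted p = 0.0815), and stood at -0.69 with the length and GC trend removed. Pias4, a SUMO ligase that restrains STATs, was at 0.67 (limma adjusted p = 0.102), and at -0.12 with the length and GC trend removed. Adaptors were split likewise, from Sh2b2 (0.74, limma adjusted p = 0.126) to Stam2 (-0.54, 0.167), but with the trend removed they stood at -0.18 and -0.0034. Of 22 receptors tested, 3 lay above and 4 below the controls, against the same shares of all genes. Ghr, the growth hormone receptor, was the highest of those separated, at low levels (at most 45.1 in WT and at least 68.3 in KO, log2 fold change 1.03, limma adjusted p = 0.218, and 1.67 with the trend removed), and Il10rb, a subunit shared by interleukin 10 family receptors, the lowest (-0.60, 0.111). The SUMO ligase Pias1 (log2 fold change -0.56, limma adjusted p = 0.0995) and the receptor genes Epor and Il3ra, of erythropoietin and interleukin 3, were singled out after their values were seen, as they had adjusted p under 0.1. Epor was at 0.59 and Il3ra at 0.93 (limma adjusted p of 0.0916 and 0.0941). With the trend removed the 3 stood at -0.02, -0.10 and 0.15.

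Of 11 ligands, 4 passed the filter, and none of these was separated between genotypes. Ifng, the gene of interferon gamma, was noticed after its values were seen, with 9.99 to 42.5 in WT, 0 in KO 2 and 486 in KO 3. This single library decided its mean.

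Among 14 tested targets of STATs, 7 lay above the controls in both KO libraries and 1 below, where 23.9% and 23.2% of all genes did. Ccnd1, which encodes cyclin D1 and drives entry into the cell cycle, had 127, 115 and 132 in WT, 282 in KO 2 and 530 in KO 3 (fold change on the log2 scale 1.63, SE 0.36, limma adjusted p = 0.0815). It kept a similar value, 1.54, with the trend removed. Fos, an immediate early gene, had 2010, 3894 and 3067 in WT and 912 and 1010 in KO (-1.59, SE 0.27, limma adjusted p = 0.0815), and stood at -1.72 with the trend removed. The median log2 fold change of the targets was 0.40, and -0.10 with the trend removed.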

How the data were processed

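The authors deposited a table of normalized signal per gene symbol, with 1 column for each of the 5 libraries (3 WT, 2 KO) prepared by SMART-Seq from low-input RNA. Submitters' processing notes name STAR, featureCounts, DESeq2 and mm10. Versions, annotation and strand setting were not given in the sources used here. In each column 100% of positive values were whole multiples of the smallest (within 0.01 reads), so reads were recovered as the signal divided by this step. A deposited table of the authors' own comparison (log2 fold changes, p-values) was not used. Every pair of libraries differed by more than sampling noise (lowest chi-square over degrees of freedom 34.0).

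As the deposited signal is not raw counts, limma 3.58.1 in R 4.3.3 (lmFit, eBayes with trend) was run on log2(value + 1), without covariates, for genes reaching 10 in 2 or more libraries. Fold changes on this scale understate changes of low genes. Genes were called at an adjusted p under 0.05. Shares of all genes given beside the members carry no fold limit. The closing counts over all genes also required a fold change of at least 2. edgeR 4.0.16 (TMM, quasi-likelihood) and DESeq2 1.42.0 were run on the recovered reads as alternatives, and the scripts were tested on simulated data. DESeq2 leaves the adjusted p of some genes undefined, and these were not counted. Length, GC content and positions came from GENCODE M21 (GRCm38) by symbol, for 13515 of 13661 genes (500 through older symbols) and all 10 members. Members and lists were chosen with earlier results of these data known. Named genes were the members, Syncrip, the JAK, STAT, SOCS and PIM paralogs and, in each further list, the separated genes of highest and lowest fold change, and some of these are not reported here. Alternatives covered pseudocount, filter, scaling, variance model, tool, replicate block, each library left out, and length and GC.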

Additional observations from a re-analysis of the deposited data

How the results depend on the processing

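No member of the 10 passed limma's adjusted p of 0.05 with all libraries (3 did at an unadjusted p under 0.05), and the count was 3 with DESeq2, 2 at an adjusted p under 0.1, and 0 to 3 on leaving out 1 library. The 3 came without KO 2, where KO 3 alone was assumed to vary like the controls, and were Socs1 (2.29), Socs2 (2.93) and Jak2 (-0.90), in a fit that called 26.6% of all genes. Other pathway genes past the limit numbered 0, but 11 with DESeq2, 7 at an adjusted p under 0.1, 1 (Fos) with the replicate block and 0 to 26 without 1 library, the 26 again without KO 2. Members separated between genotypes numbered 5 to 10 without 1 library (10 without KO 2 and 8 without KO 3, in fits where 78.8% and 63.8% of all genes were separated). Jak1, Jak2, Socs1, Socs2, Cish and Pim1 kept their direction in all 19 alternatives, but without WT 3 Cish moved from 1.06 to 0.28, Socs2 from 1.88 to 1.13 and Pim1 from 0.90 to 0.57, and without KO 3 Socs1 stood at 0.62 (1.45 with all libraries), Socs2 at 0.83, Cish at 0.50 and Pim1 at 0.44.

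Stat3 changed sign with quantile normalization (-0.043), the replicate block (-0.0063), correction for length and GC (-0.16), and on leaving out 1 library (range -0.19 without KO 3 to 0.31, with -0.0063 without WT 1). Stat5b did so without KO 3 (-0.24, the range reaching 0.52) and with the trend removed (-0.087), Stat5a with the trend removed (-0.18) and Socs3 without KO 2 (0.37, the range reaching -1.42). Syncrip was lower throughout, but lost its call without a filter (-2.43, adjusted p = 0.0503), with array weights (-2.42, 0.0594), with the trend removed (-1.53, 0.141) and without any 1 WT library. The fits that left out 1 library ran from -2.55 to -2.32.

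Over all genes, with a fold change of at least 2, 1 was called by limma, 2 with a pseudocount of 10, 2 with edgeR under either scaling, 1061 with DESeq2, 6 with the replicate block and 807 at an adjusted p under 0.1. It was 0 without a filter, with array weights and with the trend removed (3963, 3328 and 2331 at an unadjusted p under 0.05), and 0 to 2451 without 1 library. The cause was not tested. The replicate numbers 2 and 3 are shared by both groups, but nothing says that they pair the samples. Deviations from the group means correlated at -0.06 for number 2 and -0.18 for number 3. The deviations of the 2 KO libraries are exact opposites by construction. WT 2 with KO 3 thus gave 0.06 and WT 3 with KO 2 gave 0.18, and these values do not settle whether the numbers pair.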
